A study of Tachysurus vachellii with 12 samples.

Results

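The liver transcripts annotated hs6st1b, HS3ST3B1 and B4GALT7 encode enzymes of heparan sulfate synthesis, and they were followed in juvenile catfish held at low oxygen. They are 3 of 34744 assembled genes in the mRNA table and 3 of the 30 that its pathway column assigns to heparan sulfate synthesis. They were chosen by their measured values, as the rows of that pathway that passed the test of hypoxia against control in the same libraries (adjusted p under 0.05). Their difference between the groups is therefore given as a description, with no test. No other of the 30 passed it, so the zero count among the remaining 27 also follows from that choice.

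Heparan sulfate is a sugar chain carried by proteoglycans of the cell surface and the matrix. It is built on a short linker of xylose, galactose and glucuronic acid, extended by the exostosin enzymes, and then modified by N-, 2-O-, 6-O- and 3-O-sulfotransferases and an epimerase. The pattern of sulfate groups sets which growth factors, lipases, coagulation factors and lipoproteins the chain binds. In mouse liver, heparan sulfate on the syndecan-1 of hepatocytes takes part in the clearance of triglyceride-rich lipoproteins. B4GALT7 adds the first galactose of the linker, which chondroitin and dermatan sulfate share. HS6ST1 enzymes place sulfate on carbon 6 of glucosamine and HS3ST3B1 places it on carbon 3, the rarest of the sulfations.

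The fish were Tachysurus vachellii, a freshwater catfish of the family Bagridae that also appears under the name Pelteobagrus vachelli. The hypoxia group had 4 h in water at 0.7 mg/L oxygen, reached by bubbling nitrogen, and the control group came from water at 6.8 mg/L. Each group had 3 pools, lettered a, b and c, of 5 livers each. Control fish were removed from the same 3 aquaria before the oxygen was lowered, so low oxygen, the time that passed and the nitrogen bubbling cannot be told apart. No genetic change or other agent is named for either group. In whole liver, fewer cells of a type and less RNA per cell cannot be told apart.

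The 6 mRNA libraries held 32652402 to 35852327 counts, and 3 counts in a library correspond to 0.0837 to 0.0919 counts per 1000000 (CPM). Of 25415 genes tested, 1159 rose and 458 fell in hypoxia (edgeR quasi-likelihood test, adjusted p under 0.05), which is 6.36% of them in all, 4.56% higher and 1.8% lower. With the pool letter as a block 2493 passed (9.81%, 6.67% higher and 3.14% lower), and without both c pools 3816 of 25652 passed (14.9%, 9.11% higher and 5.77% lower). Leaving out hypoxia a gave 702 calls (2.22% of tested genes higher and 0.395% lower) and hypoxia b 706 (2.27% higher and 0.371% lower). Leaving out control a gave 383 (1.26% higher and 0.168% lower) and control b 518 (1.6% higher and 0.327% lower). Without hypoxia c the shares were 5.06% higher and 1.96% lower, and without control c 3.88% higher and 1.92% lower. On the second principal component both c pools lay far from the rest, at −60.96 in hypoxia c and −62.28 in control c, against 14.28 to 46.25 in the other pools. Values without both of them are given where they change a call of a named row.

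B4GALT7 (comp15359_c0, an assembled sequence of 1881 bases) acts earliest of the 3, on the linker. It had 2.96, 4.28 and 3.13 CPM in hypoxia pools a, b and c, against 7.35, 6.20 and 8.43 CPM in control pools a, b and c. The highest hypoxia pool, b, lay below the lowest control pool, also b, by a factor of 1.45. The mean was 3.46 ± 0.718 CPM in hypoxia and 7.33 ± 1.11 CPM in control (SD, n = 3 each), or 47.2% of the control level. The log2 fold change was −1.08 with a standard error (SE) of 0.22, and −0.90 without both c pools. Between pools of the same letter the log2 ratio was −1.31 for a, −0.54 for b and −1.43 for c. These values rest on 98, 155 and 106.47 estimated reads in hypoxia and 252.58, 204.98 and 271 in control, the fewest of the 3 enzymes.

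The row annotated hs6st1b (comp16561_c0, 2657 bases, a 6-O-sulfotransferase) differed most between the groups. It had 3.95, 5.60 and 7.26 CPM in hypoxia pools a, b and c, against 23.0, 26.7 and 18.8 CPM in control pools a, b and c. The groups were separated by a factor of 2.59 between the highest hypoxia pool and the lowest control pool, which were both c pools. The mean was 5.61 ± 1.66 CPM in hypoxia and 22.9 ± 3.99 CPM in control (SD, n = 3 each), or 24.5% of the control level. The log2 fold change was −2.03 (SE 0.25), and −2.38 without both c pools. Between pools of the same letter the log2 ratio was −2.54 for a, −2.26 for b and −1.37 for c, so the c pools differed least.

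HS3ST3B1 (comp11841_c0, 3535 bases, a 3-O-sulfotransferase) was by far the most abundant of the 3. It had 57.9, 52.6 and 62.6 CPM in hypoxia pools a, b and c, against 115, 127 and 91.8 CPM in control pools a, b and c. The highest hypoxia pool and the lowest control pool were again both c pools, 1.47-fold apart. The mean was 57.7 ± 5.00 CPM in hypoxia and 111 ± 17.7 CPM in control (SD, n = 3 each), or 51.9% of the control level. The log2 fold change was −0.95 (SE 0.18), and −1.13 without both c pools. Its ratios between same-letter pools were −0.99 for a, −1.26 for b and −0.55 for c on the log2 scale.

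**Figure D1:**
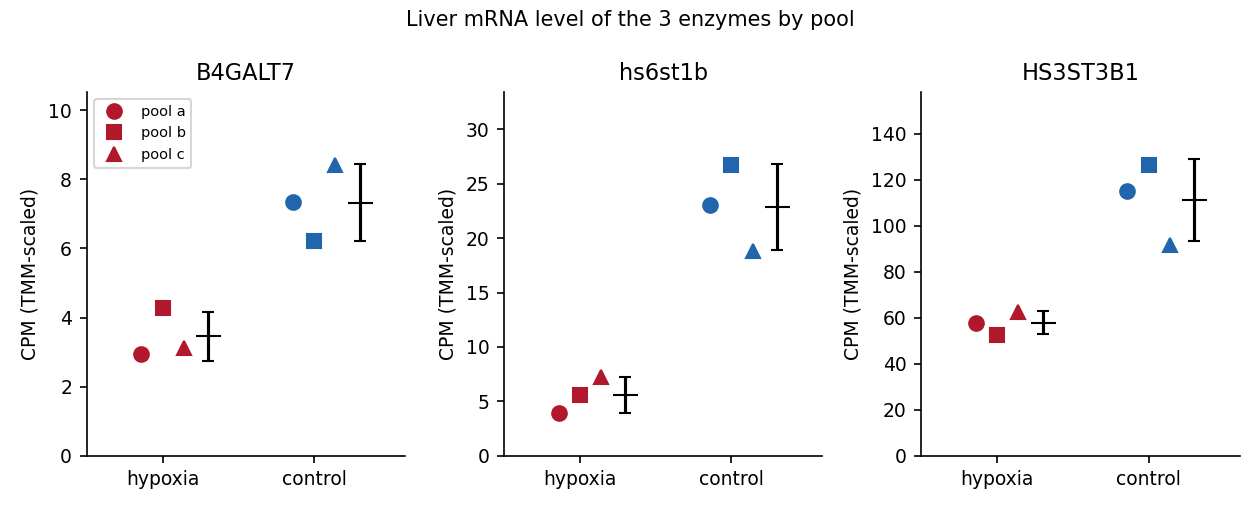
Level of B4GALT7, hs6st1b and HS3ST3B1 in CPM (vertical axis, from 0) in each of the 3 hypoxia pools (red) and 3 control pools (blue). Symbols mark the pool letter and the black bars give mean ± SD. For each gene all 3 hypoxia pools lie below all 3 control pools, with the widest gap for hs6st1b.

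The spread among pools was not alike in the 3 genes. For hs6st1b the coefficient of variation was 29.5% in hypoxia and 17.4% in control, with hypoxia c 1.84-fold above hypoxia a. For B4GALT7 it was 20.8% in hypoxia and 15.2% in control. HS3ST3B1 varied least among hypoxia pools, at 8.67%, and by 15.9% among control pools. The c pools had the lowest control values of both sulfotransferases and the highest control value of B4GALT7. Across the 6 libraries the log2 CPM of hs6st1b correlated with that of HS3ST3B1 at r = 0.96 and with that of B4GALT7 at 0.88, and HS3ST3B1 with B4GALT7 at 0.79. The 6 points fall into the 2 groups on which the genes were chosen, so these coefficients mostly restate the group difference.

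Levels between genes were compared per length, in transcripts per 1000000 (TPM). HS3ST3B1 had 22.9 ± 1.95 TPM in hypoxia and 41.8 ± 7.74 TPM in control. It ranked 2 of the 30 heparan sulfate rows in hypoxia, below the polymerase gene ext1a, and 1 in control, where its pools overlapped those of ext1a. hs6st1b had 3.02 ± 0.932 TPM in hypoxia and 11.6 ± 2.23 TPM in control, and ranked 11 in hypoxia and 5 in control. Its control range overlapped those of its neighbours in rank, EXTL3 above and ext1c below. B4GALT7 had 2.58 ± 0.586 TPM in hypoxia and 5.16 ± 0.743 TPM in control, and ranked 13 in hypoxia and 11 in control. Among all tested genes the control levels stood at percentile 94.5 for HS3ST3B1, 83.0 for hs6st1b and 66.3 for B4GALT7.

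The names come from the similarity search behind the deposited annotation and do not settle which gene copy was assembled. The RefSeq annotation of this species (assembly HZAU_Pvac_v1) lists 2 HS6ST1 genes, hs6st1a and hs6st1b, and 3 genes of the HS3ST3 type, hs3st3b1a, hs3st3b1b and hs3st3l. It lists 1 b4galt7. Reads of near-identical copies may have been split or pooled in the authors' assembly and counting, so the values of hs6st1b and HS3ST3B1 may cover more than 1 gene. Whether counting used strand is not given in the sources used here.

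The other heparan sulfate rows show what surrounded the 3 enzymes. Of the 27, 20 had enough reads to test and the other 7 had at most 24 counts in any library. None of the 20 passed, which is fixed by the choice above. Of the 20, 13 had a log2 fold change under 0, with a median of −0.45, against 50.2% of all tested genes and a median of −0.0034. In 8 of the 20 all hypoxia pools lay below all control pools, where 13.7% of all tested genes did so, and in 0 of them above, where 14.6% of all tested genes did so. An unadjusted p under 0.05 was reached by 9, each lower in hypoxia. Among all tested genes 21.8% reached it, and 9.57% did so with a lower level. Several of the 20 are pieces of the same gene, since they carry 16 distinct names, so they are not independent. One of the ndst1 pieces had too few reads in every hypoxia pool and was tested only through its control pools. A second ndst1 piece had enough reads in 1 hypoxia pool and all 3 control pools, so it too was tested through its control pools. Both are among the 13 negative rows and the 9 with an unadjusted p under 0.05. A B3GAT1 piece had enough reads in all 3 hypoxia pools and 1 control pool (log2 fold change 0.06). With the pool letter as a block 3 of the 20 fell (EXTL3, ext1c and hs6st2), against 3.14% lower calls among all genes in that fit. DESeq2 called 4 lower, against 3.14% of all genes (9.67% in either direction), and limma-voom 0, against 1.55%. In edgeR 6 were lower without both c pools, where 5.77% of all tested genes were. Without hypoxia c 5 were lower, against 1.96%, and without control c 2, against 1.92%. The 6 and the 5 include ndst1 pieces with 3 to 5 counts in hypoxia a and b, tested only through their control pools.

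**Figure D2:**
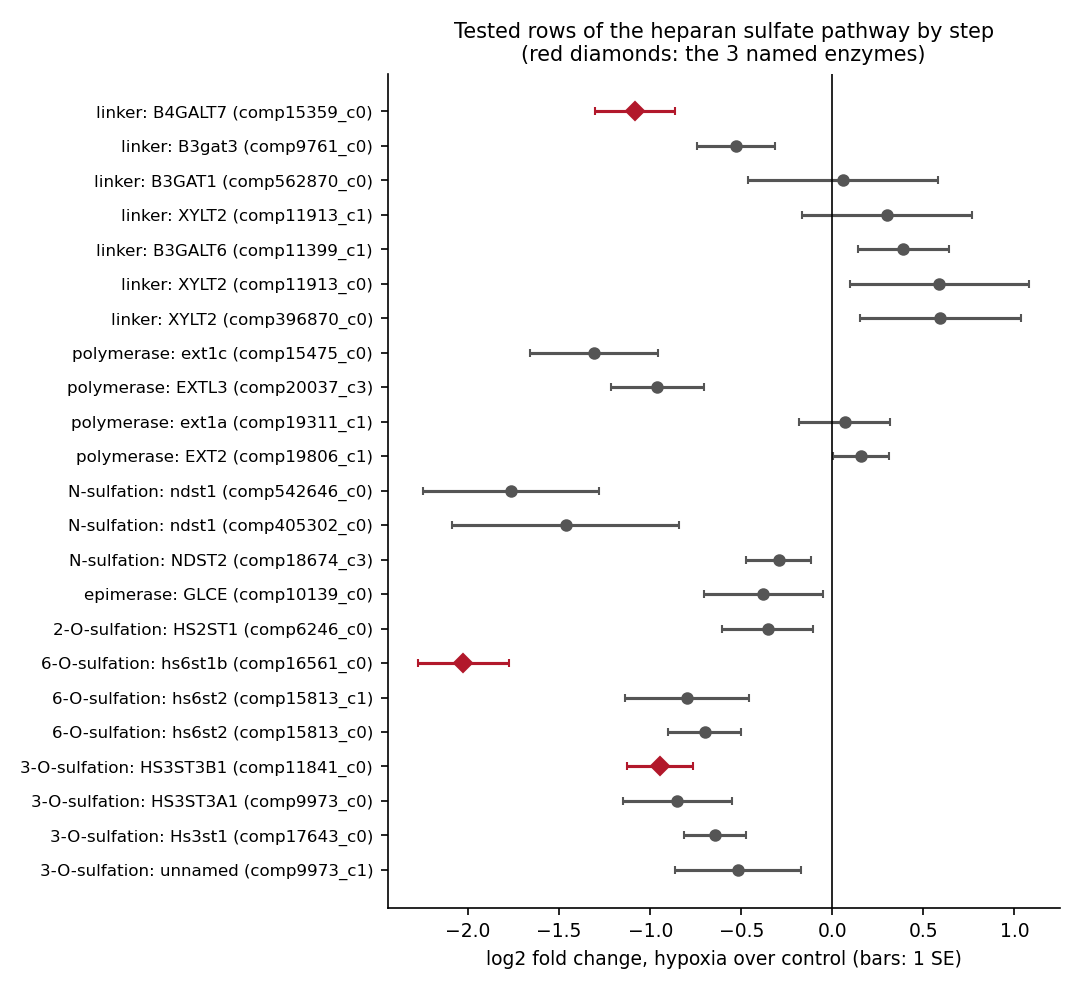
Log2 fold change of hypoxia over control (horizontal axis) for the 23 tested heparan sulfate rows, ordered by step. Bars are 1 SE. The 3 named enzymes are red diamonds, and the N-, 2-O-, 6-O- and 3-O-sulfation rows and the epimerase all lie left of 0, while linker rows lie on both sides.

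Around B4GALT7, the other linker genes had no shared direction. B3GALT6, which adds the second galactose, had 2.93, 3.67 and 4.56 CPM in hypoxia and 3.29, 2.24 and 2.98 CPM in control, with overlapping groups and a log2 fold change of 0.39 (edgeR adjusted p = 0.41). B3gat3, which adds the glucuronic acid that ends the linker, had 1.98, 2.04 and 2.23 CPM in hypoxia, against 3.46, 2.72 and 2.86 CPM in control. Its groups did not overlap, but its log2 fold change of −0.53 did not pass (edgeR adjusted p = 0.19). The xylose kinase gene fam20b had a log2 fold change of −0.23 (edgeR adjusted p = 0.54). Pieces annotated XYLT2, the xylosyltransferase that starts the linker, had positive values of 0.30 to 0.59. Among the 6 tested rows of the linker list without B4GALT7, 0 passed in either direction, against 6.36% of all tested genes. For all of them but fam20b, which the pathway column does not assign to heparan sulfate synthesis, this is fixed by the choice of the named enzymes. Of the 6, 2 were negative and 4 positive, and the median was 0.35. All positive rows but B3GALT6 are XYLT2 pieces with 5 to 24 counts per library, so they are not independent.

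The summed linker level in TPM was 15.5, 14.3 and 15.4 in hypoxia a, b and c, against 16.8, 14.95 and 16.0 in control a, b and c. B4GALT7 made up 13.8%, 22.8% and 15.3% of that sum in hypoxia, against 32.7%, 28.8% and 35.4% in control. The rest of the linker rows together had 13.4, 11.0 and 13.0 TPM in hypoxia and 11.3, 10.6 and 10.4 TPM in control, which overlap. The sum of the step overlapped between the groups, while the share of B4GALT7 did not. Each assembled piece counts as a row, so a gene in several pieces, such as XYLT2, enters the sum several times. The sums and shares of this and the other steps therefore depend on how the genes were assembled.

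The chain polymerases did not share a direction. The most abundant, ext1a, had 111, 101 and 87.7 CPM in hypoxia and 107, 118 and 60.3 CPM in control, with a log2 fold change of 0.07 (edgeR adjusted p = 0.90). Its partner EXT2 stood at 0.16 (edgeR adjusted p = 0.59). EXTL3, which starts the chain on the linker, had 10.1, 20.4 and 19.5 CPM in hypoxia, against 30.9, 34.3 and 31.97 CPM in control. Its log2 fold change of −0.96 just missed the threshold (edgeR adjusted p = 0.060), and it passed with the pool letter as a block (adjusted p = 0.019) and without both c pools (−1.10, adjusted p = 0.015). A second row annotated as EXT1, ext1c, had 5.76, 11.4 and 16.3 CPM in hypoxia, against 30.3, 32.9 and 19.8 CPM in control. For ext1c the log2 fold change was −1.31 (edgeR adjusted p = 0.062), −1.40 with the block (adjusted p = 0.041) and −1.88 without both c pools (adjusted p = 0.00050). EXTL3, ext1c, Hs3st1, a piece of ndst1 and hs6st2 were the rows nearest to the threshold that chose the 3 enzymes, without passing it.

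**Figure D3:**
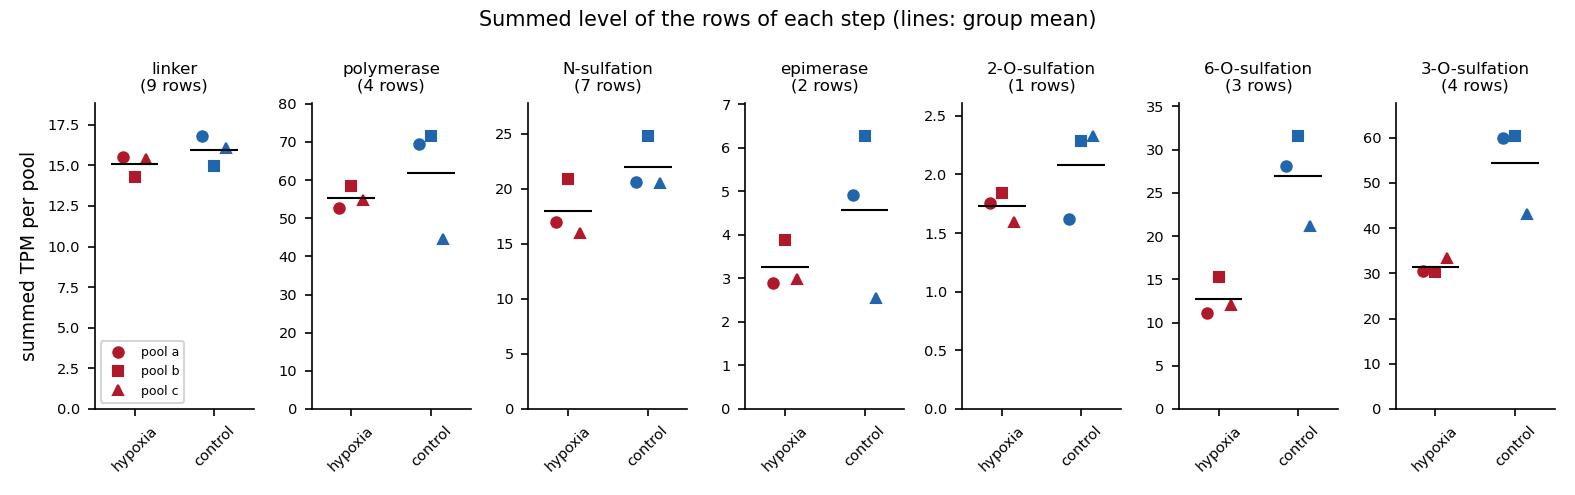
Summed level in TPM (vertical axes, from 0) of the rows of each step in each hypoxia pool (red) and control pool (blue). Symbols mark the pool letter and lines the group mean. The groups are apart for the 6-O and 3-O steps, which hold hs6st1b and HS3ST3B1, and overlap for the other 5 steps. Both rows were chosen on this contrast. Without hs6st1b the 6-O sum overlaps narrowly between the groups, and without HS3ST3B1 the 3-O sum stays apart. A gene assembled in several pieces enters a sum several times.

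In the 6-O step the sum of 3 rows was 11.1, 15.2 and 12.01 TPM in hypoxia a, b and c, against 28.2, 31.6 and 21.2 TPM in control a, b and c. hs6st1b made up 18.6%, 20.1% and 32.7% of it in hypoxia, against 43.9%, 42.3% and 42.9% in control. Its share was thus lower in each hypoxia pool, and nearly constant across the control pools. The remainder is hs6st2, a second 6-O-sulfotransferase, in 2 pieces. Together these had 9.05, 12.15 and 8.09 TPM in hypoxia and 15.8, 18.2 and 12.10 TPM in control, which overlap only narrowly, between hypoxia b and control c. Without hs6st1b, which was chosen on this contrast, the 6-O sum thus falls just short of separating the groups. The longer piece (comp15813_c0) had 7.82, 9.06 and 5.85 CPM in hypoxia, against 11.8, 13.8 and 11.3 CPM in control, with no overlap. Its log2 fold change was −0.70 (SE 0.20, edgeR adjusted p = 0.077), with adjusted p = 0.031 with the pool letter as a block and 0.036 without both c pools (log2 fold change −0.61). The shorter piece had a log2 fold change of −0.80 with overlapping groups (edgeR adjusted p = 0.21). Both values are smaller than that of hs6st1b, but the difference between the 2 genes was not tested.

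In the 3-O step the sum of 4 rows was 30.5, 30.3 and 33.5 TPM in hypoxia, against 59.9, 60.3 and 43.2 TPM in control. HS3ST3B1 made up 73.3%, 70.3% and 74.8% of it in hypoxia, against 76.5%, 77.4% and 76.2% in control, so it carried most of the step in every pool. The other rows together had 8.16, 9.01 and 8.43 TPM in hypoxia, against 14.1, 13.6 and 10.3 TPM in control, with no overlap. Hs3st1, in mammals the enzyme linked to the antithrombin-binding site, had 6.28, 6.68 and 7.62 CPM in hypoxia, against 11.9, 10.8 and 9.51 CPM in control. Its groups did not overlap, and its log2 fold change was −0.64 (SE 0.17, edgeR adjusted p = 0.062), with adjusted p = 0.0088 without both c pools. HS3ST3A1 (comp9973_c0) had 0.634, 0.718 and 0.706 CPM in hypoxia, against 1.37, 1.39 and 0.964 CPM in control, a log2 fold change of −0.85 (edgeR adjusted p = 0.13). An unnamed row with the same annotation as HS3ST3B1, comp9973_c1, stood at −0.52 (edgeR adjusted p = 0.43). The rows of the HS3ST3 type may share reads, so they are not independent measurements.

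**Figure D4:**
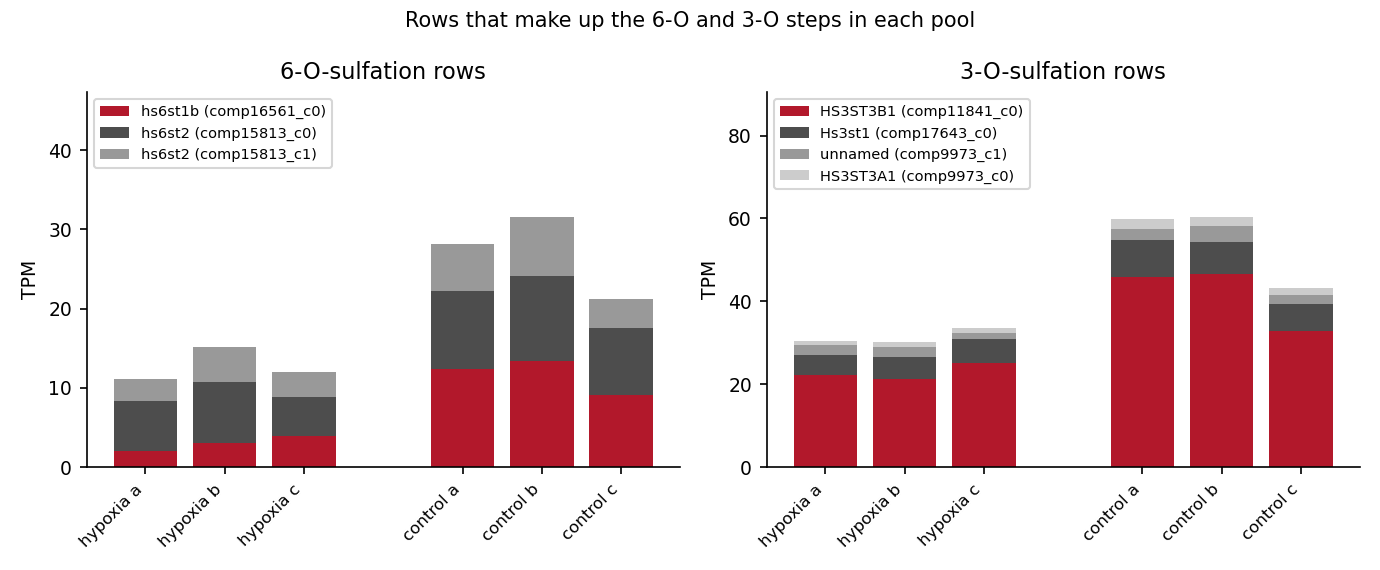
Stacked level in TPM (vertical axes, from 0) of the rows of the 6-O step (left) and the 3-O step (right) in each hypoxia pool and each control pool. hs6st1b (red, left) fills 18.6% to 32.7% of the bar in hypoxia and 42.3% to 43.9% in control, while HS3ST3B1 (red, right) fills 70.3% to 77.4% in all 6 pools.

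The summed levels of the N-sulfation, epimerase and 2-O steps overlapped between the groups. NDST2, an N-deacetylase and N-sulfotransferase, was the most abundant of them, with 40.6, 42.8 and 30.3 CPM in hypoxia, against 43.2, 48.6 and 47.8 CPM in control. Every hypoxia pool of NDST2 was narrowly below every control pool, and the log2 fold change of −0.29 did not pass (edgeR adjusted p = 0.38). The epimerase GLCE stood at −0.38 (edgeR adjusted p = 0.54) and the 2-O-sulfotransferase HS2ST1 at −0.36 (edgeR adjusted p = 0.45). Without hs6st1b and HS3ST3B1 the list of sulfotransferases and epimerase had 9 tested rows of 14. None passed in either direction, against 6.36% of all tested genes, which is fixed by the choice of the 3 enzymes. All 9 were negative, against 50.2% of all tested genes, and the median was −0.70. Each of the 9 also had a negative value in every other setting in which it was tested. Those settings reuse the same libraries, so the kept sign is no independent support. The 9 include 2 ndst1 pieces that were tested through their control pools. Of these, 1 had too few reads in every hypoxia pool and 1 had enough in only 1 hypoxia pool. In 5 of the 9 all hypoxia pools lay below all control pools, where 13.7% of all tested genes did so, and 6 had an unadjusted p under 0.05 and a lower level, against 9.57%. In other fits the count of lower calls was 1 with the block, against 3.14% of all genes, 2 with DESeq2, against 3.14%, 0 with limma-voom, against 1.55%, and 4 without both c pools, against 5.77%. Those 4 are hs6st2, Hs3st1 and 2 pieces of ndst1 (−2.33 and −2.47, adjusted p = 0.023 each). Both ndst1 pieces had 3 to 5 counts in hypoxia a and b. They entered that fit only through their control pools.

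Enzymes that edit finished chains gave 0 calls among 4 tested rows, against 6.36% of all tested genes, with 3 negative values. HPSE, heparanase, which cuts heparan sulfate, had 19.5, 19.1 and 22.6 CPM in hypoxia and 46.8, 46.7 and 21.5 CPM in control. Control c lay within the hypoxia range and the other control pools far above it. For HPSE the log2 fold change was −0.91 (edgeR adjusted p = 0.096), −1.21 without control c (adjusted p = 0.0054) and −1.28 without both c pools (adjusted p = 0.00013). SULF2, an enzyme that removes 6-O-sulfate outside the cell, was low, with 0.996, 1.27 and 2.06 CPM in hypoxia and 1.08, 1.49 and 0.839 CPM in control (log2 fold change 0.35, edgeR adjusted p = 0.62). HPSE2, an inactive relative of heparanase in mammals, stood at −0.40 (edgeR adjusted p = 0.53).

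All sulfotransferases draw on the sulfate donor PAPS. Of 22 tested rows for sulfate and sugar donors, 1 fell and 0 rose, where 1.8% of all tested genes fell and 4.56% rose. Of the 22, 11 were negative, with a median of 0.01. With the block 2 fell and 0 rose, against 3.14% and 6.67%. Without both c pools 6 rose, where 9.11% of all tested genes did, and 2 fell, where 5.77% did. The 6 are SLC35B2, a row of SLC35A3 and several rows of UGP2, so they are not independent. The gene that fell was Slc35b3, a transporter that carries PAPS into the Golgi. It had 2.13, 3.202 and 2.997 CPM in hypoxia, against 5.07, 5.81 and 5.94 CPM in control, with no overlap, and a log2 fold change of −1.01 (SE 0.22, edgeR adjusted p = 0.029). The call was lost when any 1 library other than hypoxia c was left out (adjusted p 0.053 to 0.11). The other PAPS transporter gene, SLC35B2, had 7.06, 5.22 and 3.53 CPM in hypoxia and 2.94, 4.12 and 2.92 CPM in control (log2 fold change 0.66, edgeR adjusted p = 0.21), and it passed without both c pools (0.80, adjusted p = 0.045). PAPSS2, a PAPS synthase, had 45.8, 46.9 and 29.3 CPM in hypoxia, against 67.9, 75.3 and 71.0 CPM in control. For PAPSS2 the log2 fold change was −0.81 (edgeR adjusted p = 0.051), and it passed with the pool letter as a block (adjusted p = 0.024) and without both c pools (−0.63, adjusted p = 0.013). Papss1 had a log2 fold change of 0.24 (edgeR adjusted p = 0.46). UGP2, which makes the UDP-glucose from which UDP-glucuronic acid and UDP-xylose derive, supplied the 3 most abundant rows of the list. The main UGP2 row had 1379 ± 205 TPM in hypoxia and 1250.2 ± 315 TPM in control (log2 fold change 0.06, edgeR adjusted p = 0.89), and the others had 0.54 and 0.57 (edgeR adjusted p = 0.22 and 0.27). Without both c pools these 2 rows passed, at 0.79 (comp18964_c0, adjusted p = 0.015) and 0.89 (comp15940_c1, adjusted p = 0.0035).

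Among 20 tested rows of core proteins, 1 rose and 1 fell, against 4.56% higher and 1.8% lower among all tested genes. Of the 20, 13 were positive, with a median of 0.23. Pieces annotated HSPG2 make up most of the 13, and all tested ones were positive, so the rows are not independent. Without both c pools 2 rose and 1 fell, against 9.11% and 5.77%. SDC4, syndecan-4, a transmembrane proteoglycan, rose, with 47.7, 29.0 and 27.9 CPM in hypoxia, against 17.0, 13.6 and 15.1 CPM in control. All hypoxia pools lay above all control pools, with hypoxia a the highest. On the log2 scale the fold change was 1.195 (SE 0.23, edgeR adjusted p = 0.019), and the call was lost without control a (adjusted p = 0.084) or control b (adjusted p = 0.11). GPC4, a glypican anchored to the membrane by a lipid and annotated with the zebrafish name knypek, fell. It had 5.37, 6.65 and 4.61 CPM in hypoxia, against 13.2, 14.7 and 8.36 CPM in control, and a log2 fold change of −1.12 (SE 0.25, edgeR adjusted p = 0.031). Leaving out any 1 library other than control c ended that call (adjusted p 0.054 to 0.13).

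The most abundant rows annotated as core proteins did not pass in the fit of all 6 libraries. A row of 1792 bases annotated HSPG2, perlecan, had 1184 ± 96.9 TPM in hypoxia and 962 ± 271 TPM in control (log2 fold change 0.22, edgeR adjusted p = 0.60). The other 12 HSPG2 rows averaged at most 2.44 TPM, so whether the abundant row is perlecan is uncertain. SDC2 (comp20172_c1), syndecan-2, had 228 ± 25.4 TPM in hypoxia and 167 ± 8.83 TPM in control, with separated groups and a log2 fold change of 0.37 (edgeR adjusted p = 0.25). It passed without both c pools (0.53, adjusted p = 0.037). A shorter Sdc2 row (comp16487_c0) went the other way, at −0.50 (edgeR adjusted p = 0.098).

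**Figure D5:**
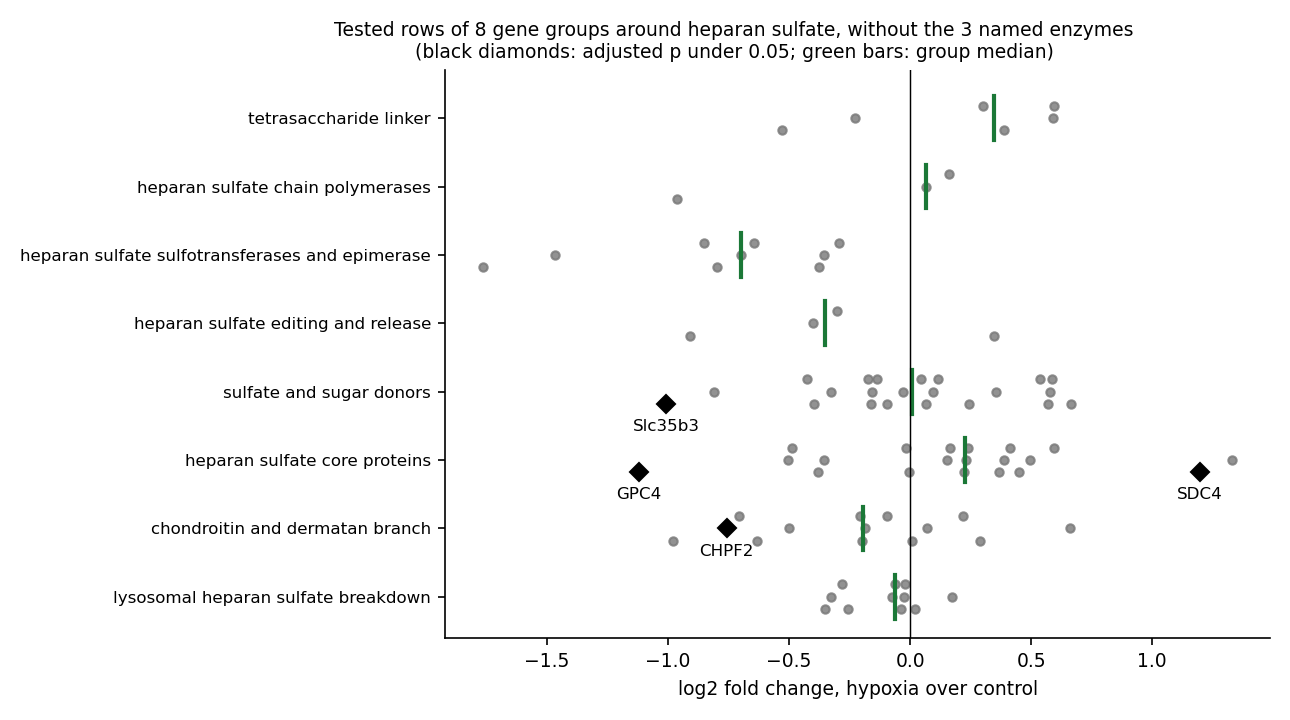
Log2 fold change of hypoxia over control (horizontal axis) of the tested rows in 8 gene groups around heparan sulfate, without the 3 named enzymes. Green bars are group medians and labelled black diamonds are the rows with an adjusted p under 0.05, SDC4 higher and GPC4, Slc35b3 and CHPF2 lower in hypoxia.

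B4GALT7 also serves chondroitin and dermatan sulfate, which branch off after the linker. Of 14 tested rows of that branch 1 fell and 0 rose, against 1.8% lower and 4.56% higher among all tested genes. Of the 14, 9 were negative, with a median of −0.19. Without both c pools 3 fell, where 5.77% of all tested genes did. CHPF2, a factor of chondroitin polymerization, fell, with 13.9, 17.1 and 15.3 CPM in hypoxia, against 26.7, 27.5 and 24.1 CPM in control. For CHPF2 the log2 fold change was −0.76 (SE 0.16, edgeR adjusted p = 0.025), and leaving out the a or the b pool of either group ended the call (adjusted p 0.073 to 0.12). The most abundant, CHST15, a chondroitin sulfotransferase, had 57.7 ± 7.39 CPM in hypoxia and 57.5 ± 3.68 CPM in control. DSE, an epimerase of dermatan sulfate, stood at −0.20 (edgeR adjusted p = 0.52).

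The list of lysosomal heparan sulfate breakdown includes the sulfatase-modifying factors Sumf1 and SUMF2 beside the enzymes. It gave 0 calls among 11 tested rows in edgeR, DESeq2 and limma-voom. Among all tested genes 6.36% passed in edgeR and 9.67% in DESeq2, and limma-voom called 1.55% lower. Of the 11, 0 had an unadjusted p under 0.05, against 21.8% of all tested genes. Their median log2 fold change was −0.06, and 9 of the 11 were negative, against 50.2%. The sulfatase ARSG had 50.3 ± 25.1 CPM in hypoxia and 53.0 ± 13.5 CPM in control, the sulfamidase SGSH 29.0 ± 3.19 CPM in hypoxia and 29.7 ± 4.15 CPM in control, and the acetyltransferase HGSNAT 49.6 ± 2.37 CPM in hypoxia and 44.0 ± 0.864 CPM in control. Over the 8 groups together, 1 of 89 tested rows rose and 3 fell, against 4.56% higher and 1.8% lower among all tested genes. The 89 include rows of the heparan sulfate pathway, which could not pass in that fit because of how the named enzymes were chosen. With the pool letter as a block 1 rose and 6 fell, against 6.67% higher and 3.14% lower among all tested genes. Without both c pools 8 of 93 rose and 12 fell, against 9.11% and 5.77%. Without hypoxia c 3 of 93 rose and 6 fell, against 5.06% and 1.96%. Without hypoxia a or hypoxia b 1 rose, against 2.22% and 2.27%, and 0 fell, against 0.395% and 0.371%. Without control a or control b 0 rose, against 1.26% and 1.6%, and 0 fell, against 0.168% and 0.327%.

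The genes whose log2 CPM over the 6 libraries followed each enzyme most closely were found among 10620 named rows of at least 1 CPM. For hs6st1b they were Akr1b1, an aldose reductase (r = 0.998), mrpl54, a mitochondrial ribosomal protein (r = 0.996), and DYRK1A, a protein kinase (r = 0.996). For HS3ST3B1 they were gpd1l, a glycerol-3-phosphate dehydrogenase (r = 0.996), Gramd4 (r = 0.996) and mtg1 (r = 0.995). For B4GALT7 they were sdc2-a, a syndecan-2 row of the core protein list (r = 0.997), MAD2L2 (r = 0.992) and RAB35, a small GTPase (r = 0.989). The sdc2-a row had 48.5, 55.5 and 48.0 CPM in hypoxia, against 72.0, 65.0 and 76.3 CPM in control, with pool b nearest in both genes. Its log2 fold change of −0.49 did not pass (edgeR adjusted p = 0.11). The shorter Sdc2 row (comp16487_c0) went the same way, at −0.50, and the most abundant SDC2 row (comp20172_c1) the other way, at 0.37. At the lower threshold of 0.95, 250 of the 10620 rows lay above it for hs6st1b, 134 for HS3ST3B1 and 147 for B4GALT7. The named rows are thus the top of a longer list. The 6 libraries fall into the groups on which the enzymes were chosen, so these coefficients too mostly restate the group difference.

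Cell type markers were summed in TPM beside these values. Calls are first given for the edgeR fit of all 6 libraries, where 4.56% of all tested genes rose and 1.8% fell. Hepatocyte markers summed to 11531 to 12501 in hypoxia and 10164 to 13538 in control, with 0 of 10 tested rows called. Their high sum goes with the tissue label, liver. Endothelial markers summed to 121 to 130 in hypoxia and 73.9 to 98.1 in control, without overlap. Of 11 tested rows 1 was higher, FLT1, a VEGF receptor gene that is itself known to respond to low oxygen. The largest part of the sum was 1 kdrl row (comp19757_c0), with 52.5 ± 3.99 TPM in hypoxia and 37.0 ± 5.20 TPM in control. Of the 11, 7 were positive and 4 negative. All hypoxia pools lay above all control pools in 4 and below in 2, Tie1 and an Erg row. Bile duct markers summed to 569 to 598 in hypoxia and 472 to 510 in control, also without overlap, with 0 of 3 called. Nearly all of that sum was KRT19, with 567 ± 13.9 TPM in hypoxia and 480 ± 18.7 TPM in control. The other bile duct rows, sox9-a and EPCAM, overlapped between the groups. Stellate and fibroblast markers summed to 398 to 662 in hypoxia and 411 to 504 in control, and 1 of 17 tested rows fell, the stellate factor gene HAND2. The HAND2 call was lost when the a or the b pool of either group was left out. Most of the stellate and fibroblast list went the other way, with 12 of the 17 positive, 5 negative and a median log2 fold change of 0.63. All hypoxia pools lay above all control pools in 4 of the 17 and below in 1. Among all tested genes 14.6% lay above and 13.7% below. Leukocyte markers summed to 33.8 to 51.2 in hypoxia and 32.6 to 47.8 in control, with 0 of 7 called. Erythroid markers summed to 1314 to 5844 in hypoxia and 2677 to 5574 in control, with 0 of 9 called, and exocrine pancreas markers to 2373 to 9214 in hypoxia and 83.9 to 6307 in control, with 0 of 7 called. No marker row was at 0 in all libraries. Without both c pools 4 of the 10 hepatocyte rows rose and 4 of the 9 erythroid rows fell. In that fit 6 stellate and fibroblast rows rose and 1 fell, where 9.11% of all tested genes rose and 5.77% fell. The 6 are short pieces annotated DCN, COL1A2 and COL1A1, each with most of its reads in hypoxia b. The longest COL1A1 row (comp19702_c0) stood at −0.30 (edgeR adjusted p = 0.35) and the longest DCN row (comp11768_c0) at −0.07 (edgeR adjusted p = 0.81). With the pool letter as a block 1 hepatocyte row and 3 stellate and fibroblast rows rose. In the same fit 1 endothelial row fell beside FLT1, which rose. Of all tested genes 6.67% rose and 3.14% fell with the block. Whether these differences take part in the lower values of the 3 enzymes was not tested.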

How the data were processed

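Liver mRNA of 3 hypoxia and 3 control pools was used, and small RNA libraries were not. Per the labels, the authors trimmed 125-bp paired-end reads from TruSeq libraries and assembled them with Trinity, and RSEM 1.2.3 and DESeq are named in the submitters' processing notes. The deposited table holds the authors' estimated counts (expected counts) of reads per assembled gene, unscaled and with fractions, and an effective length in bases. The strand setting is not given in the sources used here.

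Rounded counts were tested in edgeR 4.0.16 (R 4.3.3; quasi-likelihood, TMM, filterByExpr, two-sided) with Benjamini-Hochberg adjustment over all 25415 tested genes and a threshold of 0.05. CPM use TMM-scaled library sizes, and log2 CPM a prior count of 2. TPM are counts over effective length, scaled to 1000000 per library. The SE is the absolute log2 fold change over the square root of F. DESeq2 1.42.0 and limma 3.58.1 were alternatives. Plots used Python 3.11.15 and matplotlib 3.10.9. Replicate pools of a group differed by 3.15 to 9.38 times the Poisson value. P-values measure the spread between pools, and depths bound counting error only.

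The heparan sulfate rows are those whose pathway column names its biosynthesis. The 8 gene groups (linker, polymerases, sulfotransferases and epimerase, editing, donors, core proteins, chondroitin and dermatan branch, lysosomal breakdown; 67 of 88 symbols matched) and 7 marker lists were matched by symbol. Members and lists were chosen with earlier results of these data known. Named are the 3 enzymes, listed or pathway rows that passed, the 3 most abundant of each group, and the 3 most correlated genes per enzyme. Other pathway and donor rows, and the marker rows such as FLT1 and HAND2, were named after their values were seen.

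Same-letter pools of the 2 groups deviated together (correlations across genes 0.15, 0.19 and 0.31 for a, b and c, other pairs −0.29 to 0.18). The letter was therefore used for the block and the same-letter ratios. The reported fit has no block, so its p-values do not use the letter. Hypoxia a correlated more with control b (0.18) than with control a (0.15), so whether a and b mark pairs is uncertain. The labels give the same 3 aquaria for both groups and tie no letter to an aquarium.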

Additional observations from a re-analysis of the deposited data

How the results depend on the processing

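Besides the reported fit, 15 settings were tried. The log2 fold change of each of the 3 enzymes kept its sign and moved by less than the replicate spread in all of them, with −2.38 to −1.84 for hs6st1b, −1.13 to −0.85 for HS3ST3B1 and −1.28 to −0.90 for B4GALT7. With the replicate block these were −2.05, −0.94 and −1.09. The 3 enzymes were chosen on this contrast, and each had every hypoxia pool below every control pool. A kept sign when pools are left out follows from that and is no independent support. The count of all genes called was 1617 as reported, 2456 with DESeq2, 2493 with the replicate block (1601 of them shared) and 3816 without both c pools, and leaving out 1 library gave 383 to 1855. The count of heparan sulfate rows without the 3 enzymes was 0 as reported, 4 with DESeq2, 3 with the replicate block, 6 without both c pools and 0 to 5 leaving out 1 library. The count of listed genes was 4 as reported, 9 with DESeq2, 7 with the replicate block, 20 without both c pools and 0 to 9 leaving out 1 library. The causes of these shifts were not tested. Among 92 other rows tested one by one, none that passed changed sign. DESeq2 added 6 calls, the replicate block 4, limma-voom 1 and the fit without both c pools 17, and leaving out 1 library ended 1 to 4 calls. With 3 pools per group and rows of under 1 CPM, a call missed is not an absence of change.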
